A study of Drosophila melanogaster with 4 samples.

Results

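The 9 genes described here form the core of TORC1 signalling, the growth pathway that sets how much protein a cell makes, and were taken by name from the pathway. They were the kinase complex genes Tor (named mTor in the annotation), raptor and Lst8, the switch genes Rheb, gig and Tsc1, and the translation effectors S6k, Thor and larp. All 9 were found among the 17699 counted genes, and all 9 passed the filter on low counts that left 9038 genes for testing. The libraries are polysome-seq of Drosophila melanogaster ovaries from UAS-Dicer2;NosGAL4 > bam RNAi; hs-bam flies, so input and polysome samples alike carry the germline knockdown of bam, added Dicer-2 and the heat-shock bam transgene. The nos driver acts in germ cells, while the heat shock reaches the whole fly, and the somatic cells of the ovary stay in the sample. All flies had heat shocks at 37°C for 2 h, repeated after 4 h of rest, on each of 2 days, and ovaries were dissected 3 to 5 days after eclosion. There were 2 groups, the input lysate and the polysome fraction, each with replicates 1 and 3, and no unshocked or undifferentiated ovaries are analysed here.

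TORC1 is a protein kinase built around Tor, with Raptor to choose substrates and Lst8 to steady the catalytic core. It is switched on at the lysosome by the small GTPase Rheb, and Rheb is switched off by the complex of Tsc1 and Gigas, the fly TSC2. Active TORC1 phosphorylates the kinase S6k and the translation repressor Thor, the fly 4E-BP, which then lets go of the cap-binding protein eIF4E. Larp is the fly member of the LARP1 family, which in mammals binds the 5′ end of mRNAs with a terminal oligopyrimidine tract and is a TORC1 substrate. In the fly ovary this pathway supports growth of stem cells and egg chambers, and its restraint in cysts by the GATOR1 complex is known to help germ cells enter meiosis. Polysome-seq compares an mRNA's share among messages carrying several ribosomes with its share in the whole lysate, and the question asked of these libraries is which mRNAs are favoured or held back at that step.

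Gene counts totalled 10646651 and 12298615 in input 1 and 3 and 19452659 and 22647905 in polysome 1 and 3, of which the 9 genes held 15617, 20493, 33704 and 34064. Polysome 3 stood apart from the other libraries, as its log2 CPM correlated across genes at 0.786 to 0.802 with theirs, and theirs at 0.841 to 0.873 with each other. Nothing in the labels says that replicates came from separate groups of flies, so p-values measure the spread between these libraries, which may be technical. The summed shares of cell type marker genes and of heat-shock protein genes differed between the libraries. Summed over 14 eggshell genes of late follicle cells, inputs 1 and 3 held 1240 and 1400 CPM, polysome 1 held 2700 and polysome 3 held 11800. Over 14 muscle sheath genes it was 27800, 35900, 29900 and 9150 CPM in the same order, and over 13 heat-shock protein genes 35000, 36600, 27600 and 12600 CPM, with 1 of the 13 at 0 throughout. The 9 germline genes matched, which include vas, aub, ovo and bam, summed to 1160, 1480, 938 and 1750 CPM. By log2 fold change of polysome over input, 14 of 14 eggshell genes were positive (median 4.66), 14 of 14 muscle sheath genes negative (-0.82) and 11 of 11 tested heat-shock protein genes negative (-0.91), while 5 of 9 germline genes were positive. None of these genes passed the test between fractions, in a fit that called 0% of all genes. Whether these differences bear on the 9 genes was not tested. In bulk tissue fewer cells of a type and less RNA per cell cannot be told apart. Between fractions, neither can be told apart from a different ribosome load of these mRNAs.

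In the input, Thor was far above the other 8 mRNAs. Levels between genes are compared here as TPM, a share of all transcripts that divides counts by the exon length of the gene. Mean input TPM was 929 ± 385 (SD, n = 2) for Thor, at percentile 98.3 of tested genes, and 159 ± 50.3 for Rheb, at percentile 92.4. S6k followed at 90.4 ± 20.4, larp at 86.8 ± 47.2 and Lst8 at 66.8 ± 6.11. Below these came Tsc1 at 26.4 ± 9.66, Tor at 17.1 ± 8.81 and gig at 16.6 ± 5.06, close to the median tested gene at 24.6 TPM. The mRNA for raptor was the scarcest, at 5.08 ± 3.39 TPM and percentile 17.6. The 2 libraries of Thor, Rheb, Lst8 and gig did not overlap with those of the next gene in this order. The range of larp overlapped with those of S6k and Lst8, while S6k lay above Lst8 without overlap. Tsc1 overlapped with Tor and Tor with gig. In polysomes the order was Thor, Rheb, Lst8, S6k, larp, Tsc1, gig, Tor and raptor, with Thor at 1210 ± 968 TPM and raptor at 7.56 ± 1.25. There, Thor, Tsc1 and Tor were the genes whose libraries did not overlap with those of the next gene.

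**Figure D1:**
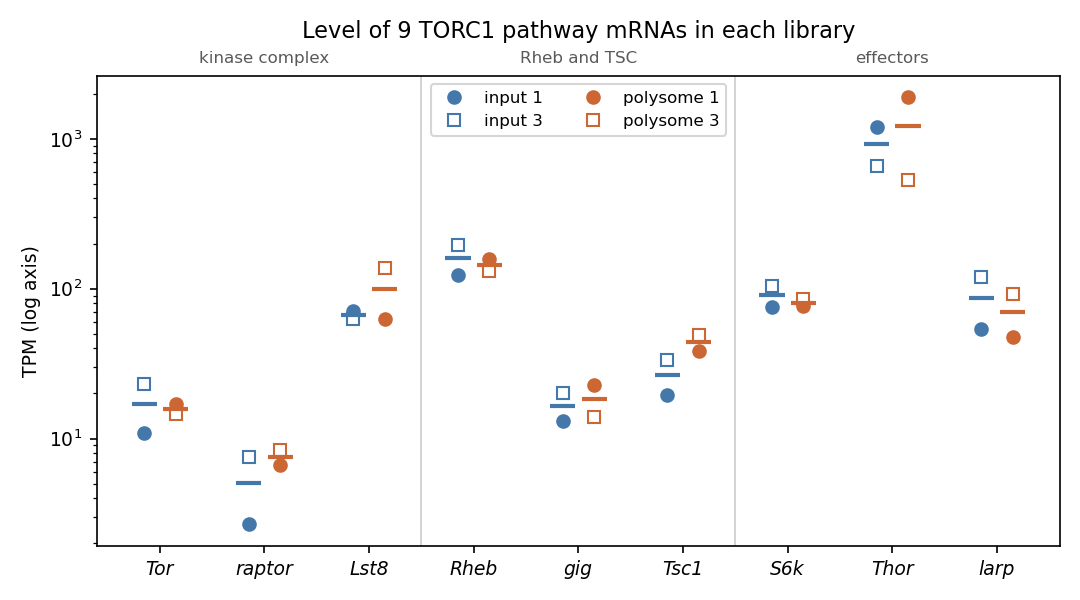
TPM (log axis) of the 9 mRNAs in each of the 4 libraries, with input in blue, polysome in orange, replicate 1 as filled circles, replicate 3 as open squares and bars at the mean of 2 libraries. Thor lies between 530 and 1900 TPM in every library, all other genes lie at or under 195 TPM, and raptor lies between 2.68 and 8.45 TPM.

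None of the 9 mRNAs passed the test between polysomes and input. By edgeR's quasi-likelihood test over 9038 genes, 0 of 9 passed at an adjusted p under 0.05, where 0% of all genes did, and the 9 adjusted p-values lay between 0.996 and 1. At an unadjusted p under 0.05, 0 of 9 passed as well, against 423 of the 9038 genes (4.68%). By sign 4 fold changes were positive and 5 negative, their log2 median was -0.13, and the median over all tested genes was -0.0032. The 95% interval of the fold change included 0 for each of the 9. In CPM, only S6k had both polysome libraries below both inputs, a pattern that 18.1% of all tested genes showed. No member had both above in CPM, against 17.2% of genes.

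**Figure D2:**
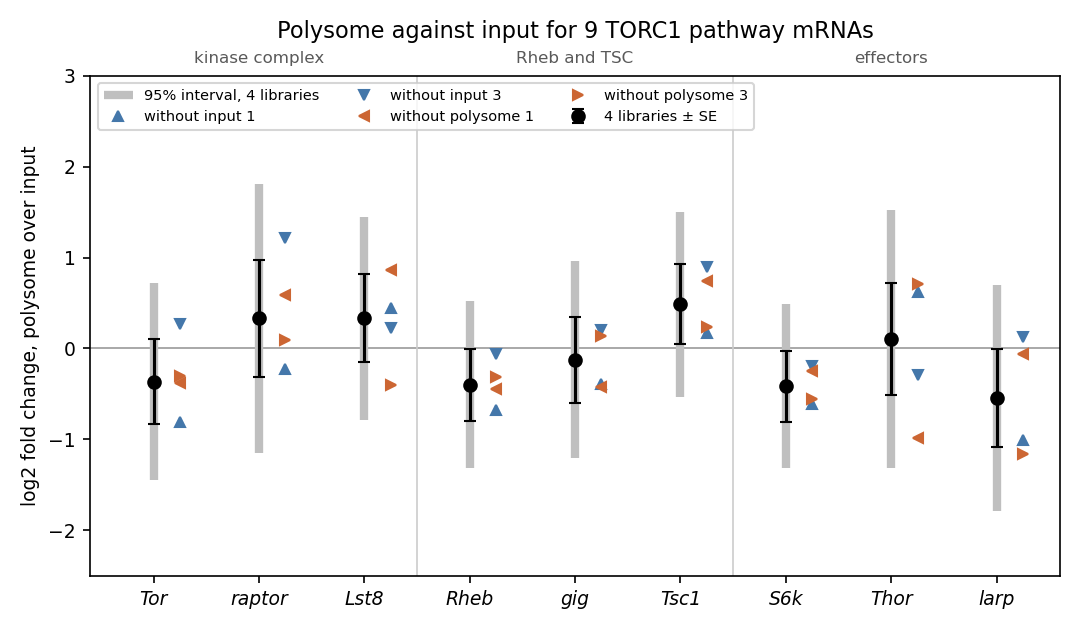
Log2 fold change of polysome over input for each gene, with black points and bars for the value over 4 libraries ± SE, grey bars for its 95% interval and coloured triangles for the value with 1 library left out. Every grey bar crosses 0, and the triangles of Tor, raptor, Lst8, gig, Thor and larp lie on both sides of it.

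Among the genes of the kinase complex, the catalytic subunit Tor, at FBgn0021796 on chromosome 2L from 13004480 to 13013197 (dm6), had 57.0 and 119 CPM in inputs 1 and 3, against 71.9 and 65.0 in polysomes 1 and 3. Input 1 was the lowest library and input 3 the highest, and both polysome libraries fell between them. Its log2 fold change was -0.36 ± 0.47 (SE), with a 95% interval from -1.45 to 0.72. The value moved to 0.26 without input 3 and to -0.80 without input 1.

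raptor, on chromosome X from 6082634 to 6090201 (FBgn0029840), had 12.5 and 34.0 CPM in inputs 1 and 3, against 25.1 and 33.5 in polysomes 1 and 3. Input 1 stood below the other libraries, on 129 reads with a 95% Poisson interval of 107.7 to 153.3, which covers counting error only. The log2 fold change was 0.33 ± 0.64, or 1.22 without input 3 and -0.22 without input 1. Of its 7097 exon bases, 1669 are shared with the neighbour Mipp2 on the same strand, and reads in a shared stretch name no single gene, so its level here is a low estimate. With those bases left out of the length, a setting chosen after seeing the data, raptor was at 3.50 and 9.78 TPM in the inputs and 8.73 and 11.1 TPM in the polysomes.

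Lst8, also on the X from 9604154 to 9605969 (FBgn0264691), had 82.6 and 70.5 CPM in inputs 1 and 3, against 58.5 in polysome 1 and 134 in polysome 3. Its 2 polysome libraries were the lowest and the highest of the 4. The log2 fold change was 0.33 ± 0.48, with 0.86 without polysome 1 and -0.41 without polysome 3. In all, 127 of its exon bases lie opposite the gene Gga, and 2.63% to 9.55% of reads on the locus came from the other strand, so the strand-specific count was needed here. Measured against Tor within each library, the TPM ratio of Lst8 to Tor was 6.57 and 2.68 in the inputs and 3.69 and 9.37 in the polysomes, and that of raptor to Tor was 0.25 and 0.32 in the inputs and 0.39 and 0.58 in the polysomes. The 3 messages of the complex therefore held one order in every library, Lst8 above Tor above raptor, with ratios that varied as much within a fraction as between fractions for Lst8.

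Of the switch genes, Rheb, the GTPase that turns the kinase on, lies on chromosome 3R from 5568921 to 5570491 (FBgn0041191). It measured 100 and 153 CPM in inputs 1 and 3, and 103 and 89.4 in polysomes 1 and 3, with input 3 above the other libraries. Its log2 fold change was -0.40 ± 0.40, the same sign with any library left out, between -0.68 without input 1 and -0.060 without input 3.

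gig, whose product gives the TSC complex its activity toward Rheb, lies on chromosome 3L from 20129181 to 20139010 (FBgn0005198). It had 49.7 and 74.9 CPM in inputs 1 and 3, against 69.4 and 44.8 in polysomes 1 and 3, so both fractions had a low and a high library and their ranges overlapped. The log2 fold change was -0.13 ± 0.47 and changed sign without input 3 (0.20) and without polysome 3 (0.14).

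Tsc1, which holds Gigas in a stable complex, lies on chromosome 3R from 24130307 to 24134654 (FBgn0026317). It measured 50.3 and 83.0 CPM in inputs 1 and 3, and 79.5 and 107 in polysomes 1 and 3, a log2 fold change of 0.49 ± 0.44 with an interval from -0.53 to 1.50. This was the highest fold change of the 9, between 0.17 without input 1 and 0.89 without input 3. In CPM, polysome 1 lay below input 3. In TPM the fractions did not overlap, with 19.6 and 33.2 in the inputs and 38.6 and 49.3 in the polysomes. The share of all genes with this pattern in TPM was not computed, so nothing particular to Tsc1 is read from it. The ratio of the 2 TSC subunit messages was similar across libraries except in polysome 3. Tsc1 over gig was 1.50 and 1.65 in the inputs, 1.71 in polysome 1 and 3.56 in polysome 3. Rheb over Tsc1, the activator over a subunit of its inhibitor, was 6.32 and 5.87 in the inputs and 4.10 and 2.65 in the polysomes. This ratio covers Tsc1 only, and Rheb over gig was not computed. In TPM gig overlapped between fractions, at 13.01 and 20.17 in inputs 1 and 3 and 22.65 and 13.85 in polysomes 1 and 3.

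Among the effectors, S6k encodes the kinase that phosphorylates ribosomal protein S6, on chromosome 3L from 5797549 to 5810931 (FBgn0283472). It had 245 and 328 CPM in inputs 1 and 3, against 197 and 232 in polysomes 1 and 3, with both polysome libraries below both inputs. The log2 fold change was -0.42 ± 0.39, with an interval from -1.32 to 0.49, and it stayed between -0.62 and -0.19 with any library left out. On the TPM scale the fractions overlapped, at 76.0 and 105 in the inputs and 76.4 and 85.0 in the polysomes.

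Thor, on chromosome 2L from 3478434 to 3479612 (FBgn0261560), measured 598 and 318 CPM in inputs 1 and 3, and 758 and 223 in polysomes 1 and 3. Replicate 1 was high and replicate 3 low in both fractions, and the polysome libraries lay outside the inputs on either side. The log2 fold change was 0.10 ± 0.62, with 0.71 without polysome 3 and -0.99 without polysome 1 (adjusted p = 0.275). The mRNA of eIF4E1, the cap-binding protein that Thor restrains, was named here for that role, and had a log2 fold change of 0.036 ± 0.40, between -0.15 without input 1 and 0.25 without input 3. Thor mRNA was at 2.75 and 1.11 times the eIF4E1 level in TPM in the inputs and at 3.11 and 0.82 times it in the polysomes. The repressor's message thus exceeded its target's in 3 of 4 libraries and not in polysome 3.

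larp, on chromosome 3R from 28318162 to 28336440 (FBgn0261618), had 322 and 702 CPM in inputs 1 and 3, against 231 and 471 in polysomes 1 and 3. Here replicate 3 was high and replicate 1 low in both fractions, the reverse of Thor, and within each replicate number the polysome library was the lower one. The log2 fold change was -0.55 ± 0.54, the lowest of the 9, with a 95% interval from -1.79 to 0.70. It was -1.16 without polysome 3 and -1.01 without input 1, against -0.062 without polysome 1 and 0.13 without input 3. In TPM, Thor over larp was 22.5 and 39.7 in input 1 and polysome 1, against 5.47 and 5.73 in input 3 and polysome 3.

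For each mRNA, the absolute log2 CPM difference between replicates, averaged over the fractions, was set beside the absolute difference between the fraction means. The first was larger for 8 of the 9 mRNAs, S6k being the exception. Differences between single libraries vary more than differences between means, so the first tends to be larger even without any effect. No conclusion is drawn from the count. Among 7885 tested genes with reads in every library the first was larger for 64.5%. In log2 CPM, replicate 3 minus replicate 1 was -0.91 in the input and -1.76 in polysomes for Thor, and 1.13 and 1.03 for larp, against median absolute differences over those genes of 0.48 and 0.66. For 5 of the 9 (raptor, Tsc1, S6k, Thor and larp) the replicate difference had the same sign in both fractions, where 50.3% of genes had. Tor, Lst8, Rheb and gig changed sign. In the input, 7 of 9 were higher in replicate 3, with Thor and Lst8 the other way. The share of all genes higher in input 3 was not computed, so this count is a description only.

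**Figure D3:**
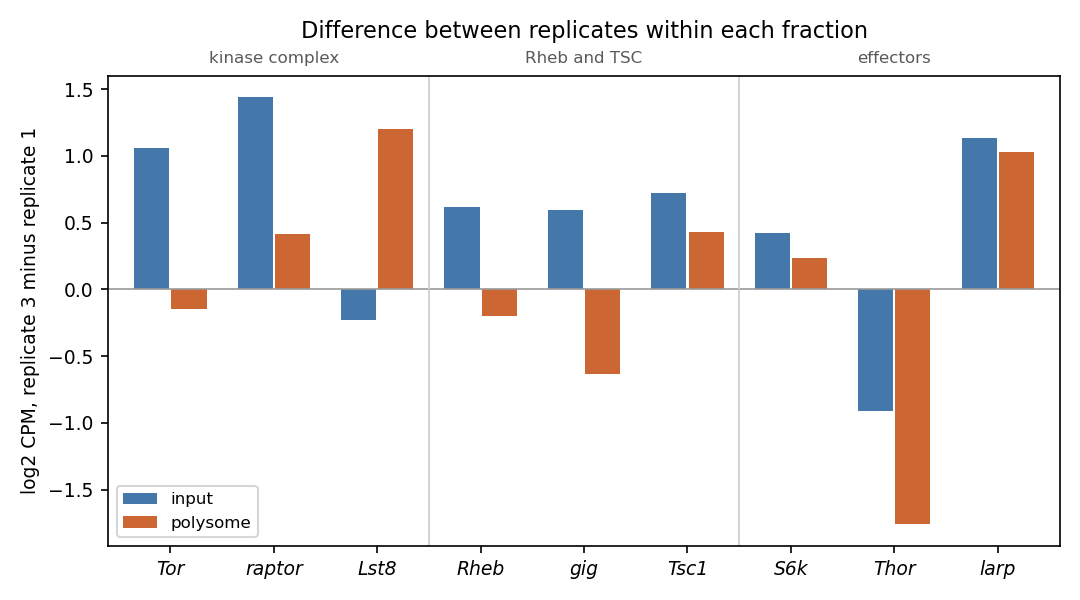
Difference in log2 CPM between replicate 3 and replicate 1, drawn as bars from 0 for input (blue) and polysome (orange). Thor is lower in replicate 3 in both fractions, by -0.91 and -1.76, and larp is higher in both, by 1.13 and 1.03.

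The study's measure of translational efficiency, log2 of polysome TPM plus 1 over input TPM plus 1 within a replicate number, was then computed. The mean over 2 replicates was highest for Tsc1 at 0.75 ± 0.20 (SE), at percentile 80.4 of tested genes, then 0.61 ± 0.45 for raptor and 0.47 ± 0.65 for Lst8. It was 0.18 ± 0.49 for Thor, 0.12 ± 0.63 for gig, -0.016 ± 0.63 for Tor and -0.11 ± 0.46 for Rheb. The lowest means belonged to S6k at -0.15 ± 0.15 and larp at -0.27 ± 0.11, at percentile 24.5. No test was run on these means, and the count fit above covers the same libraries.

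Taken per replicate, the polysome TPM of Tsc1 was 1.97 and 1.48 times its input TPM in replicate 1 and 3, and that of raptor was 2.49 and 1.13 times. For larp these ratios were 0.90 and 0.77. These 3 mRNAs lay on one side of an even share in both replicates, against 53.8% of tested genes. Tor was at 1.57 and 0.63 times its input, gig at 1.74 and 0.69, Rheb at 1.28 and 0.67, and Thor at 1.58 and 0.81, in each case above in replicate 1 and below in replicate 3. Lst8 went the other way, at 0.88 and 2.19 times. S6k was at 1.01 and 0.81 times, near an even share. The median efficiency of the 9 was 0.61 in replicate 1 and -0.31 in replicate 3, and over all tested genes it was 0.32 and 0.086.

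**Figure D4:**
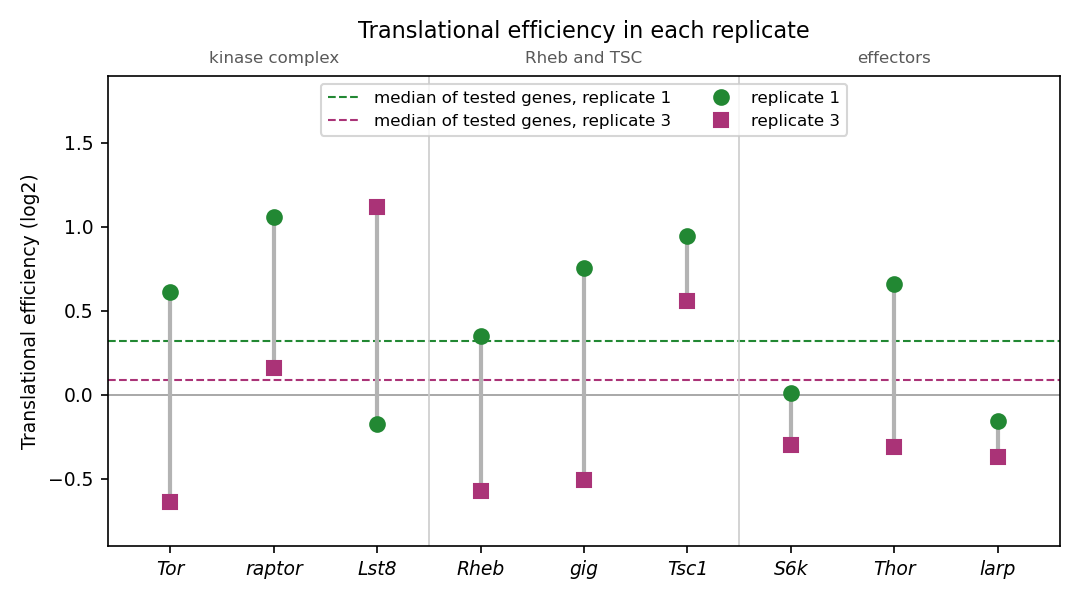
Translational efficiency (log2, vertical axis) of each gene in replicate 1 (circles) and replicate 3 (squares), joined by a line, with dashed lines at the median of tested genes. Tsc1 and raptor are above 0 in both replicates, larp is below 0 in both, and the lines of the other 6 cross 0.

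The wider pathway was described from lists of other TORC1 genes. No list member passed over all 4 libraries, and 5 of the 50 tested genes outside the 9 had an unadjusted p under 0.05, against 4.68% of all tested genes (cap-binding partners and other La-motif proteins not counted). Of these 50, 23 fold changes were positive and 27 negative, and their log2 median was -0.12. Both polysome libraries lay above both inputs for 10 and below them for 9, against the 17.2% and 18.1% of all genes given above.

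GATOR2, which holds back GATOR1 and so favours TORC1, had 5 of 5 members with a positive log2 fold change, a median of 0.58, and 4 of 5 with both polysome libraries above both inputs, as 17.2% of all genes had. Nup44A, the fly Seh1, measured 21.4 and 28.9 CPM in inputs 1 and 3, and 47.9 and 72.8 in polysomes 1 and 3, a log2 fold change of 1.26 ± 0.50 (adjusted p = 0.956). mio, singled out after its values were seen because its loss sends fly oocytes into the nurse cell fate, had 31.2 and 34.4 CPM in inputs 1 and 3, against 66.8 and 35.6 in polysomes 1 and 3 (0.64 ± 0.52, with 0.17 without polysome 1 and 1.01 without polysome 3). The median of the list was 0.87 without polysome 3. Without polysome 1 it was 0.25 with 4 of 5 positive, and Wdr59, the member whose fractions overlapped, was at -0.32. For GATOR1, the brake that acts in cysts, 1 of 3 was positive, the median was -0.21 and all 3 overlapped between fractions. That direction did not hold, as 2 of 3 were positive without input 3 (median 0.047), without polysome 3 (0.066) and with a length trend removed (0.071). Nprl2 was at 0.21 ± 0.77, and at -0.26 without input 1 and -0.020 without polysome 1. Nprl3 was at -0.41 ± 0.67, and at -0.045 without polysome 1. The difference between GATOR1 and GATOR2 was not tested.

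Of 7 tested Rag GTPase, Ragulator and folliculin genes, which dock TORC1 at the lysosome, 4 were positive and 3 negative, with the Ragulator subunits Lamtor4 at 0.84 ± 0.56 (0.41 without polysome 1) and Lamtor1 at -0.53 ± 0.45 (-0.20 without input 1). The number positive ranged from 2 without input 3 (median -0.47) to 6 without input 1 (0.63). Lamtor2 was at 0 counts in every library, which need not mean that its mRNA was absent. Of 4 amino acid sensors and transporters 3 were positive, or 2 without polysome 3. The transporter gene mnd had 13.4 and 3.58 CPM in inputs 1 and 3, against 18.5 in polysome 1 and 48.7 in polysome 3 (1.98 ± 0.84), and the transporter gene path was at -0.30 ± 0.41, or -0.00017 without input 1. Without polysome 1, mnd and the transporter gene slif passed, with adjusted p of 0.00325 and 0.00767, in a fit that called 7.24% of all genes. Without polysome 3 they were at 1.10 and -0.048.

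In the insulin branch, which feeds TORC1 through Akt and TSC, 7 of 9 were negative and 4 had both polysome libraries below both inputs, against 18.1% of all genes. The majority turned to 5 of 9 positive without polysome 1 (median 0.17), without input 3 (0.032) and with a length trend removed (0.14). InR, the insulin receptor gene, measured 97.8 and 157 CPM in inputs 1 and 3, and 44.8 and 70.3 in polysomes 1 and 3 (-1.15 ± 0.45, or -0.77 without input 3), and the adaptor gene Lnk was at 0.50 ± 0.42. Among 7 energy and stress inhibitors of TORC1, 5 were negative, but 4 were positive without polysome 3 (median 0.015), with a length trend removed (0.051) and with that and the replicate block (0.10). chrb, a fly REDD1, was at -0.82 ± 0.47, and at -0.39 without input 3 and -0.43 without polysome 1. AMPKalpha, the catalytic AMPK subunit, was at 0.43 ± 0.42, or 0.091 without polysome 1. The AMPK subunit gene alc, named for its shift with a library left out, was at -0.24 ± 0.64 over all libraries. It was at -1.66 without polysome 1, where it was called as mnd and slif were, and at 0.46 without polysome 3. Of the remaining partners, the TORC2 subunit gene Sin1 was at 0.33 ± 0.61 and Tctp at -0.36 ± 0.41, and without polysome 1 they were at -0.0032 and -0.065.

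Effectors outside translation split 5 and 5. Myc, the growth transcription factor, had 521 and 1049 CPM in inputs 1 and 3, against 150 and 340 in polysomes 1 and 3 (-1.68 ± 0.56, adjusted p = 0.956), with both polysome libraries below both inputs. It passed without polysome 3 (-2.40, adjusted p = 0.00335), where 0.549% of genes did, and was at -1.09 without input 3 and -1.15 without polysome 1. Tif-IA, which promotes transcription of ribosomal RNA, was at 0.46 ± 0.40, with 0.81 without polysome 1 and 0.074 without polysome 3. Of 12 tested cap-binding and 4E-binding partners 8 were negative, or 7 of 13 without input 3. eIF4G2 was at -1.63 ± 0.54 (adjusted p = 0.956). With polysome 3 left out it was at -2.32, and with input 3 left out at -1.06. Like Myc, eIF4G2 was called without polysome 3, in a fit with a single polysome library. eIF4B was at 1.44 ± 0.79 over all libraries. With polysome 1 left out it was at 1.96, with polysome 3 left out at 0.73 and with input 1 left out at 0.83. Like mnd and slif, eIF4B was called without polysome 1, again with a single polysome library. cup, which encodes a 4E-binding repressor, was at 0 counts in every library, so no value is given for it. Whether its mRNA was absent or its reads were not assigned to the gene was not tested.

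Among the other La-motif genes, Larp4B measured 306 and 505 CPM in inputs 1 and 3, and 120 and 208 in polysomes 1 and 3, a log2 fold change of -1.31 ± 0.47 (adjusted p = 0.956). Like larp it was higher in replicate 3 in both fractions. La was at 0.41 ± 0.48, with 0.93 without polysome 1 and -0.31 without polysome 3. The transcription factor crc, the fly ATF4 and a known activator of Thor, had 261 and 378 CPM in inputs 1 and 3, against 169 and 116 in polysomes 1 and 3 (-1.17 ± 0.42, adjusted p = 0.956).

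**Figure D5:**
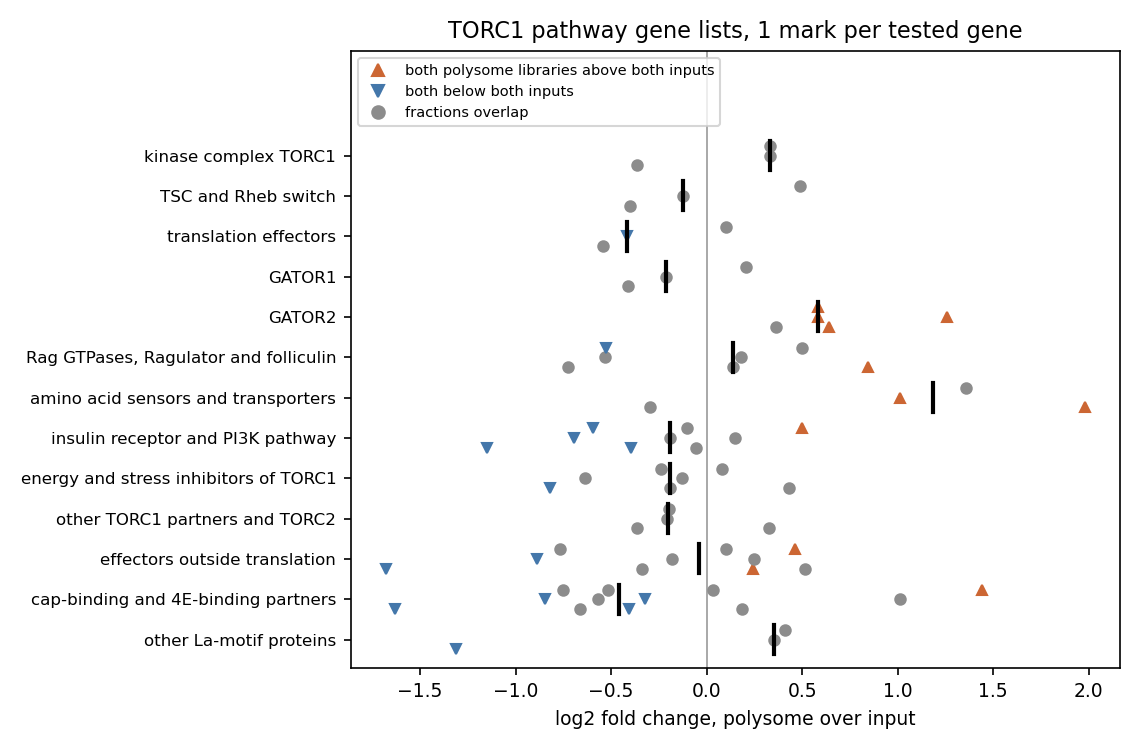
Log2 fold change of polysome over input for every tested gene of each list (horizontal axis), with black bars at the list median, upward triangles where both polysome libraries were above both inputs and downward triangles where both were below. GATOR2 has 4 upward triangles of 5 genes, and among the 9 core genes S6k alone has a triangle.

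The profiles nearest to the 3 effectors over the 4 libraries were sought among 6999 genes averaging 10 CPM or more, by Euclidean distance of log2 CPM centred on each gene's mean. Nearest to S6k were Rb97D (0.078) and LpR2 (0.078), nearest to Thor were Pcyt2 (0.049) and CG9338 (0.11), and nearest to larp were Bicra (0.098) and sqd (0.16). With 4 points and 6999 candidates a close profile is always found, so the distances are a description only. CG9338 shows the shape shared with Thor, with 303 and 161 CPM in inputs 1 and 3 against 415 and 122 in polysomes 1 and 3, and sqd that shared with larp, with 978 and 2230 CPM in inputs 1 and 3 against 686 and 1610 in polysomes 1 and 3.

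In each of 13 alternatives 0 of 9 were called, while the share of all genes called was 0.683% by DESeq2, 0.952% with no count filter, 0.52% with the replicate number as a block, 0.413% with that block and a length trend removed, and 0.0816% without input 1. Removing the length trend alone turned the sign of Tor, gig and larp, long mRNAs of 5795 to 9126 exon bases, to 0.24, 0.24 and 0.17.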

How the data were processed

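The authors mapped reads with STAR 2.6.1c to dm6 (per the submitters' processing notes) and deposited raw counts of reads per gene, unstranded and for each strand. The annotation release they counted on is not given in the sources used here. Extraction differed by fraction (TRIzol for input, phenol-chloroform for polysome), so the effects of both cannot be told apart. The count of the reverse strand, which held 95.3% to 97.1% of strand-assigned gene reads, was used. Reads naming no gene (10.8% to 42.6%) were left out. Depth was 10646651 to 22647905 gene counts per library.

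Polysome was tested against input with edgeR 4.0.16 in R 4.3.3 (quasi-likelihood test, TMM factors, filterByExpr, Benjamini-Hochberg over 9038 genes, called under 0.05). CPM are TMM-scaled. SE came from the F statistic, and intervals use its degrees of freedom. TPM used summed exon lengths of annotation BDGP6.54 on dm6 coordinates, which held 17561 of 17699 genes. The script was tested on simulated data with less spread than these libraries, whose common dispersion was 0.498. That test therefore does not show how many true changes would be found here. The members and lists were chosen with earlier results of these data known. Named genes were all 9, the smallest p per direction in each list, and for S6k, Thor and larp the 2 nearest profiles. Of 156 list symbols 152 matched. The study takes efficiency within a replicate number, but the labels do not say that numbers mark a shared lysate, and input and polysome deviations correlated at r = -0.06 over 9038 genes. Alternatives were DESeq2 1.42.0, other factors, filters and strands, the block, a length trend, and each library left out.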

Additional observations from a re-analysis of the deposited data

How the results depend on the processing

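Of 117 values for single members under 13 alternatives, 102 kept their sign and 15 changed it, and no member was called in any. Rheb, Tsc1 and S6k kept their sign throughout. The number of genes called was 62 by DESeq2, 104 with no count filter, 47 with the replicate block, 37 with length trend removed and the replicate block, and 0 to 695 with a library left out (8 without input 1, 0 without input 3, 695 without polysome 1, 53 without polysome 3). Such fits give a single remaining library the spread seen in the other fraction. The median member log2 fold change was 0.24 with the length trend removed and 0.11 with the replicate block as well, and -0.40 to 0.20 with a library left out. With the length trend removed Tor was at 0.24, gig at 0.24 and larp at 0.17, and with the replicate block as well at 0.25, 0.23 and 0.059. Thor was at -0.084 with the replicate block. With each library left out in turn, Tor ranged from -0.80 to 0.26, raptor from -0.22 to 1.22, Lst8 from -0.41 to 0.86, gig from -0.42 to 0.20, Thor from -0.99 to 0.71 and larp from -1.16 to 0.13. The median efficiency, 0.12 over both replicates, was -0.31 without replicate 1 and 0.61 without replicate 3. Where the sign changed, the cause was not tested. Equal numbers are not shown to pair the libraries, and the block changed no member's call. Counts of 129 to 16036 reads per member limited precision less than the spread between libraries, with SE of 0.39 to 0.64 on the log2 scale.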
